A study of Mus musculus with 12 samples.

Results

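The 10 core circadian clock genes Arntl, Clock, Per1, Per2, Per3, Cry1, Cry2, Nr1d1, Nr1d2 and Dbp were examined in C2C12 myotubes, as the rows of the count table whose Ensembl identifiers carry these symbols in the GENCODE annotation of GRCm38. They were 10 of 55487 genes in the table, and all 10 were among the 14175 genes with enough counts to be tested. C2C12 is a mouse myoblast line, so the libraries come from 1 cell line. Myoblasts were differentiated in DMEM with 2% horse serum for 5 days, and the medium was then replaced for 24 h by DMEM with either 4% horse serum (6 libraries, numbered 1 to 6) or 4% STEM (6 libraries, numbered 7 to 12), both with penicillin and streptomycin. STEM is what human embryonic stem cells, taken partway through differentiation, release into their medium, without the cells, and it was given instead of horse serum, so the addition of STEM and the removal of horse serum cannot be told apart. RNA was collected by well, but the sources used here do not say whether each of the 6 libraries of a group was a separate well. They also do not say how the media were placed on plates. If the libraries of a group did not come from separate cultures, p-values measure technical spread alone. Cells were collected at the single 24 h time point, and the clock hour of the medium change or of collection is not given in the sources used here. The size of a rhythm and its phase therefore cannot be told apart for any gene below.

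As background, the circadian clock is a loop of transcription and repression that runs in most cells, muscle included. CLOCK and BMAL1, the product of Arntl, bind E-box sequences and switch on the Per and Cry genes, whose products then repress CLOCK and BMAL1. In a second arm the nuclear receptors REV-ERB alpha and beta (Nr1d1 and Nr1d2) repress Arntl, and ROR receptors activate it through the same sites. Dbp is a direct output of CLOCK and BMAL1, and its product activates genes with D-box sequences. A change of serum is a known way to reset the clocks of cultured cells, and it was part of both arms of this experiment.

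With STEM, Arntl rose by 35.7% and the cryptochromes Cry1 and Cry2 rose by 17.5% and 21.4%, while Dbp, Per1, Per3 and Nr1d2 fell. The changes of the falling genes were -41.1% for Dbp, -30.9% for Per1, -27.5% for Per3 and -18.4% for Nr1d2. Clock, Per2 and Nr1d1 did not pass the test. In all, 7 of the 10 clock genes were called (Benjamini-Hochberg adjusted p no higher than 0.05, edgeR's quasi-likelihood test), 3 higher and 4 lower, against a background of 36.4% of all tested genes called in either direction (18.9% higher and 17.4% lower). The median absolute log2 fold change of the 10 genes was 0.33, beside 0.19 over all tested genes. For 4 of the 10 genes, Arntl, Cry1, Nr1d2 and Dbp, the values of the 2 groups of libraries did not overlap, against 17.2% of all tested genes.

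**Figure D1:**
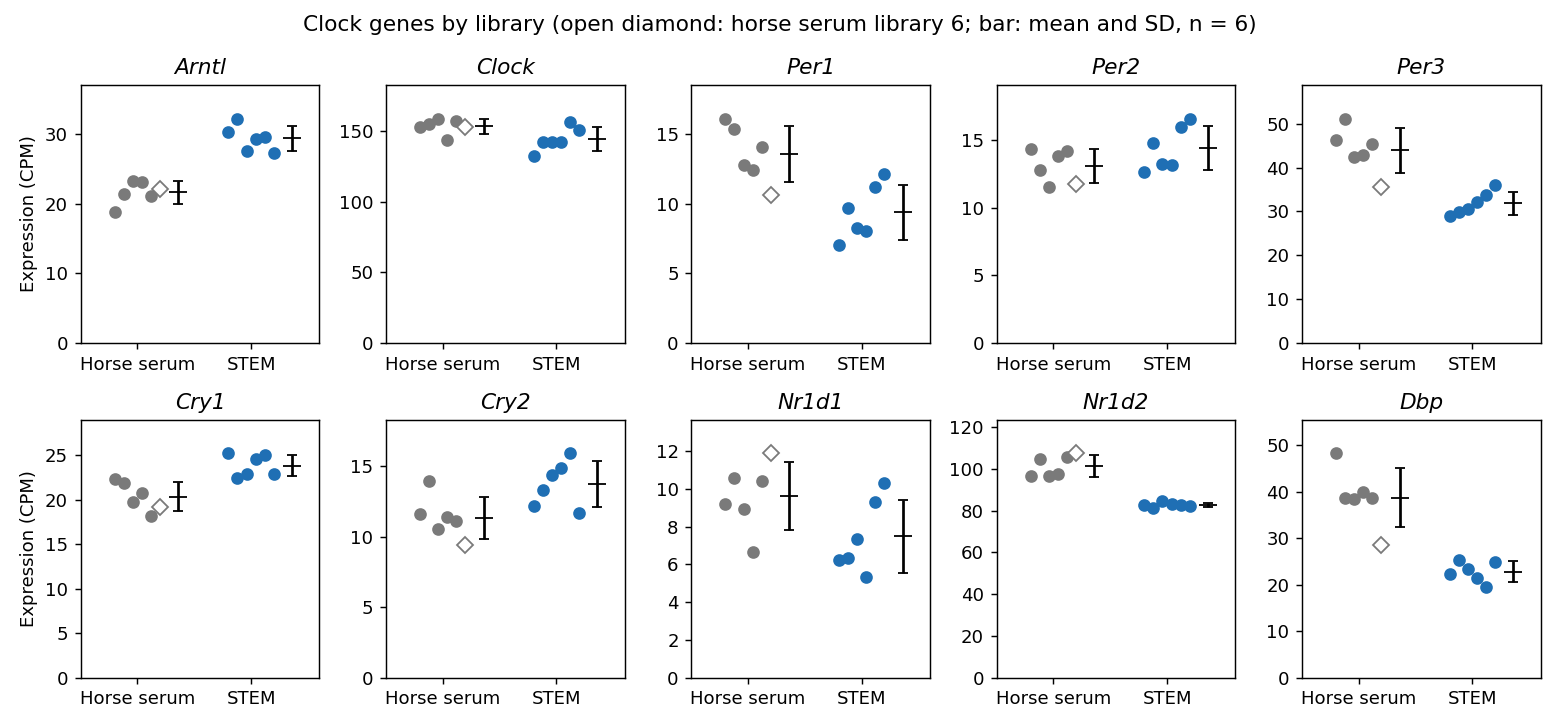
Expression in CPM (a library's counts scaled to a common total, vertical axes, each starting at 0) of the 10 clock genes in the 6 horse serum (grey) and 6 STEM libraries (blue), with mean and SD beside the points. The groups do not overlap for Arntl, Cry1, Nr1d2 and Dbp, and horse serum library 6 (open diamond) holds the lowest horse serum value of Dbp, Per1, Per3 and Cry2.

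Depth was between 13285472 and 24536264 counts per library, and the clock genes had between 83 and 3242 counts in a library. Markers of myotubes were present in every library, with Acta1, which encodes skeletal muscle actin, between 2553 and 4339 CPM in horse serum and between 3224 and 3822 CPM in STEM. Horse serum library 6 stood apart. The summed CPM of 10 myotube markers was 11931.5 in it, between 17307 and 19702 in the other 5 horse serum libraries and between 15701.5 and 21258 with STEM. Of these 10, 3 were called, beside 36.4% of all tested genes. Mymk was higher with STEM (log2 difference 0.36, adjusted p = 0.000361 in edgeR), and Myog (-0.29, adjusted p = 0.00403) and Myh8 (-1.25, adjusted p = 0.0357) were lower. The other 7, Acta1 among them, were not called. Without library 6, 6 of the 10 were called, 1 higher and 5 lower (background 50.8%). The summed CPM of 6 markers of proliferating myoblasts was between 549 and 880 with horse serum (the highest in library 6) and between 446 and 515 with STEM, with no overlap. Of these 6, Top2a (log2 difference -0.65, adjusted p = 0.000434 in edgeR), Mki67 (-0.62, adjusted p = 0.00506) and Myf5 (-0.42, adjusted p = 0.00132) were lower with STEM, Id1 was higher (0.63, adjusted p = 0.0133), and Pax7 (-0.04, adjusted p = 0.827) and Ccnb1 (-0.14, adjusted p = 0.584) were not called. The part of these markers in the clock gene differences was not tested. Fewer cells of a type and less RNA per cell cannot be told apart in such libraries. The summed markers of fibroblasts and adipocytes (5 genes) lay between 22.9 and 31.8 CPM with horse serum and between 24.2 and 29.7 CPM with STEM, with at most 3 counts of Adipoq and Thy1 in any library. Of the 3 tested, Lpl was lower with STEM (log2 difference -1.73, adjusted p = 0.000283 in edgeR), beside 36.4% of all tested genes called. Pdgfra (0.41, adjusted p = 0.112) and Dcn (-0.13, adjusted p = 0.552) were not called. Without library 6, Pdgfra was called as well, higher with STEM (0.67, adjusted p = 2.48e-06, background 50.8%). The summed markers of macrophages (4 genes) lay between 2.10 and 5.07 CPM with horse serum and between 3.37 and 4.77 CPM with STEM, and Adgre1 had 0 counts in every library. Without library 6 the same 7 clock genes were called with the same signs (background 50.8% of genes called), and the fold changes without it are given with each called gene. For the uncalled genes the log2 fold changes without it were -0.09 (Clock), 0.11 (Per2) and -0.30 (Nr1d1).

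The activator genes came apart. Arntl (ENSMUSG00000055116, chromosome 7, 113207465 to 113314126) had a lowest, median and highest value of 18.8, 21.8 and 23.3 CPM with horse serum and of 27.3, 29.5 and 32.3 CPM with STEM. Every STEM library therefore had more than any horse serum library. Its means were 21.7 ± 1.64 CPM and 29.4 ± 1.83 CPM (SD, n = 6 each), a log2 fold change of 0.44 with a standard error of 0.0636 (adjusted p = 9.47e-05 in edgeR), and 0.45 without library 6. Clock (ENSMUSG00000029238, chromosome 5, 76209868 to 76304792), whose product pairs with BMAL1, had a lowest, median and highest value of 144, 154 and 159 CPM with horse serum and of 132, 142 and 156 CPM with STEM. The groups overlapped, although 4 of 6 STEM libraries had less than any horse serum library. The log2 fold change of Clock was -0.09, with a 95% interval from -0.18 to 0.01 (adjusted p = 0.145 in edgeR), which corresponds to a change between -12.01% and 0.613%.

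Among the promoters, a window of 300 bases (250 before the transcription start and 50 after it, from RefSeq on GRCm38.p6) was given for 9 of the 10 genes, all but Per2. Each was searched on both strands for the E-box CACGTG, its variant CACGTT, the D-boxes TTATGTAA and TTACGTAA, and the ROR element AGGTCA preceded by T or G. A match describes the letters alone, and sites spelled otherwise were not searched for. Of all 32851 windows of this length, 7.15% held the E-box, 4.68% the variant, 1.06% a D-box and 7.7% the ROR element. In the later of both Arntl windows (chr7:113207261-113207560, plus strand) a ROR element, the kind of site that REV-ERB and ROR receptors share, began at position 30, counted from 0 at the transcription start. It is shown, with the element in capitals, because Arntl and Nr1d2 were among the called genes. Binding of REV-ERB or ROR receptors to it was not tested.
Arntl: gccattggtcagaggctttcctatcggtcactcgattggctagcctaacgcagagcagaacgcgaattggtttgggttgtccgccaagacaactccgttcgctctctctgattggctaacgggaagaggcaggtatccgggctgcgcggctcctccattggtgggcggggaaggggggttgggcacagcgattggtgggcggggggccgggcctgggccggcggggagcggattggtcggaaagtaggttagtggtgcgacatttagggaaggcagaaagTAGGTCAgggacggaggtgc

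The period genes, whose products carry the repression of CLOCK and BMAL1, did not move as a group. Per3 (ENSMUSG00000028957, chromosome 4, 151003652 to 151044665) had a lowest, median and highest value of 35.6, 44.1 and 51.2 CPM with horse serum and of 29.0, 31.3 and 35.96 CPM with STEM. Of the STEM libraries, 5 of 6 had less than any horse serum library, and the remaining STEM library exceeded only horse serum library 6. The log2 fold change of Per3 was -0.46 with a standard error of 0.0801 (adjusted p = 0.000415 in edgeR) and -0.52 without library 6. Per1 (ENSMUSG00000020893, chromosome 11, 69095217 to 69109960), which is also induced directly by serum and glucocorticoids, ranged from 10.6 to 16.1 CPM with horse serum (median 13.4) and from 7.01 to 12.1 CPM with STEM (median 8.97). The groups overlapped, and 4 of 6 STEM values were under the lowest horse serum value. Its log2 fold change was -0.53 with a standard error of 0.138 (adjusted p = 0.00705 in edgeR), and -0.60 without library 6. Per2 (ENSMUSG00000055866, chromosome 1, 91415982 to 91459324) had a lowest, median and highest value of 11.5, 13.3 and 14.3 CPM with horse serum and of 12.6, 14.0 and 16.6 CPM with STEM. The point estimate of Per2 was positive, unlike those of its paralogs, at 0.14 on the log2 scale with a 95% interval from -0.05 to 0.33 (adjusted p = 0.237 in edgeR).

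The Per3 window (chr4:151044616-151044915, minus strand) held 2 D-boxes, at positions -205 and -158. It is shown because D-boxes are the sites of the DBP protein, and Dbp fell beside Per3. Binding of DBP to these sites was not tested.
Per3: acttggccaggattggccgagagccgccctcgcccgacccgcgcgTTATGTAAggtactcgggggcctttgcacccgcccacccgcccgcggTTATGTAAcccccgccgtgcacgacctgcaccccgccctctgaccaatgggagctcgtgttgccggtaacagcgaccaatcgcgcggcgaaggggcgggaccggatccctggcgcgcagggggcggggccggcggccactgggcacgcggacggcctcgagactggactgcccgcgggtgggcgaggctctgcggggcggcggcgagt
The first of both Per1 windows held an E-box at position -166 and a ROR element, in the form with G before AGGTCA, at position -137. The other held none of the motifs.

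The cryptochromes, the partners of the period proteins in repression, rose together by small amounts. Cry1 (ENSMUSG00000020038, chromosome 10, 85131700 to 85185064) had a lowest, median and highest value of 18.1, 20.2 and 22.3 CPM with horse serum and of 22.4, 23.7 and 25.2 CPM with STEM. The groups did not overlap, by a margin between 22.3 CPM and 22.4 CPM that is small beside the SD of 1.62 CPM in horse serum and 1.22 CPM in STEM. Its log2 fold change was 0.23 with a standard error of 0.0635 (adjusted p = 0.00996 in edgeR), and 0.22 without library 6. Cry2 (ENSMUSG00000068742, chromosome 2, 92403646 to 92434043) ranged from 9.38 to 14.0 CPM with horse serum (median 11.2) and from 11.7 to 15.9 CPM with STEM (median 13.9). Only 3 of 6 STEM libraries had more than any horse serum library. Its log2 fold change was 0.28 with a standard error of 0.101 (adjusted p = 0.0415 in edgeR), the weakest of the 7 calls by adjusted p. Without library 6 the log2 fold change of Cry2 was 0.23 (adjusted p = 0.0485 in edgeR). Leaving out library 1, 3, 4, 5, 8, 9, 10 or 11 each ended this call (adjusted p from 0.0578 to 0.100), with log2 fold changes between 0.23 and 0.29.

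In the Cry1 window (chr10:85185005-85185304, minus strand) an E-box lay at position -60, next to a variant site at position -79, both shown in capitals. Binding of CLOCK and BMAL1 to them was not tested. The Cry2 window held 1 variant site, at position -166.
Cry1: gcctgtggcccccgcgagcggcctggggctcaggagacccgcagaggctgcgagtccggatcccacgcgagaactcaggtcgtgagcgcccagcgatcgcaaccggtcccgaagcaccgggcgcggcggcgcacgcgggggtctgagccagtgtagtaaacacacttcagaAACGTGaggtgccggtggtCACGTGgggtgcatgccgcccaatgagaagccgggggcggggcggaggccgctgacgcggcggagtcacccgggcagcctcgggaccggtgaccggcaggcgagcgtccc

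Of the REV-ERB genes, which encode the repressors of Arntl, Nr1d2 was the more precise measurement. Nr1d2 (ENSMUSG00000021775, chromosome 14, 18204054 to 18239127) had a lowest, median and highest value of 96.5, 101 and 107 CPM with horse serum and of 81.3, 82.5 and 84.6 CPM with STEM. The groups were clear of each other, and the STEM libraries had an SD of 1.09 CPM, against 5.16 CPM in horse serum. The log2 fold change was -0.29 with a standard error of 0.0407 (adjusted p = 6.72e-05 in edgeR), and -0.28 without library 6. Nr1d1 (ENSMUSG00000020889, chromosome 11, 98767932 to 98775333) had between 83 and 232 counts and ranged from 6.69 to 11.9 CPM with horse serum (median 9.82) and from 5.36 to 10.3 CPM with STEM (median 6.86). Its groups overlapped widely, and 3 of 6 STEM libraries had less than any horse serum library. The log2 fold change of Nr1d1 was -0.37 (standard error 0.166, 95% interval without adjustment from -0.72 to -0.02, adjusted p = 0.0952 in edgeR). Leaving out horse serum library 4 or STEM library 12 brought it past the threshold, with log2 fold changes of -0.46 (adjusted p = 0.0383) and -0.48 (adjusted p = 0.0316).

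The Nr1d2 window (chr14:18239057-18239356, minus strand) held GAGGTCA at position -78, counted by the search as a ROR element although Arntl held the form with T. It is shown because Nr1d2 was lower in all STEM libraries, and binding to it was not tested. The Nr1d1 window held 1 variant E-box, at position -28.
Nr1d2: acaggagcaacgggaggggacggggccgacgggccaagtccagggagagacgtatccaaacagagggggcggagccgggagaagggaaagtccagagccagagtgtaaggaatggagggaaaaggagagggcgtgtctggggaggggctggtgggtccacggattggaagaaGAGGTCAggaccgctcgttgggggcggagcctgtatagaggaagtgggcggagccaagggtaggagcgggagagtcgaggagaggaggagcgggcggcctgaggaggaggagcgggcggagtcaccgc

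Dbp, the output gene that encodes a PAR bZIP transcription factor, had the largest change of the 10 genes. Dbp (ENSMUSG00000059824, chromosome 7, 45705088 to 45710203) had a lowest, median and highest value of 28.5, 38.6 and 48.2 CPM with horse serum and of 19.4, 22.8 and 25.2 CPM with STEM. Every STEM library had less than any horse serum library, and the lowest horse serum value was that of library 6. Means were 38.7 ± 6.26 CPM and 22.8 ± 2.20 CPM (SD, n = 6 each), a log2 fold change of -0.76 with a standard error of 0.102 (adjusted p = 5.28e-05 in edgeR), and -0.84 without library 6. The Dbp window (chr7:45704997-45705296, plus strand) and the 3 Clock windows held none of the motifs searched.

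**Figure D2:**
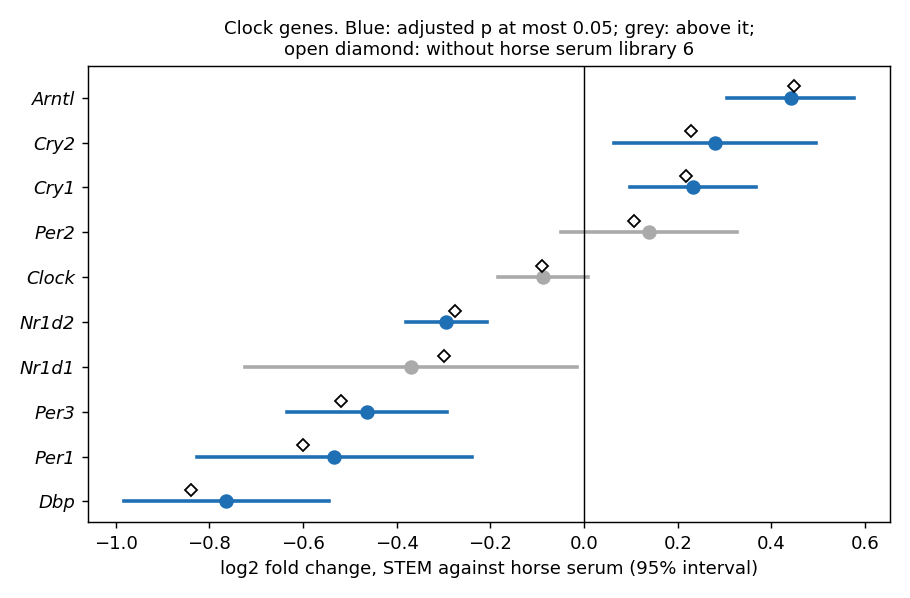
Log2 fold change of each clock gene, STEM against horse serum (horizontal axis), with the 95% interval from edgeR as a bar, blue for called genes and grey for the others. Genes run from Dbp at -0.76 to Arntl at 0.44, and the open diamonds, fitted without horse serum library 6, keep the sign of each gene.

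Because Arntl and Dbp moved in opposite directions, their counts were also set against each other within each library, a ratio that does not depend on how libraries are scaled. It is a description of 2 of the genes already tested and carries no p-value. With horse serum there were between 1.29 and 2.56 Dbp counts per Arntl count (median 1.76), the lowest in library 6. With STEM there were between 0.654 and 0.911 (median 0.758). Dbp thus had more counts than Arntl in every horse serum library and fewer in every STEM library. Counts also depend on exon length, which is 2993 bases for Dbp and 7523 for Arntl. Per kilobase of exon sequence, the mean of Dbp with STEM (7.61 CPM) was still above that of Arntl (3.91 CPM). The log2 ratio was 0.82 ± 0.316 with horse serum and -0.37 ± 0.170 with STEM (SD, n = 6 each), a difference of -1.19, or -1.28 without library 6.

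**Figure D3:**
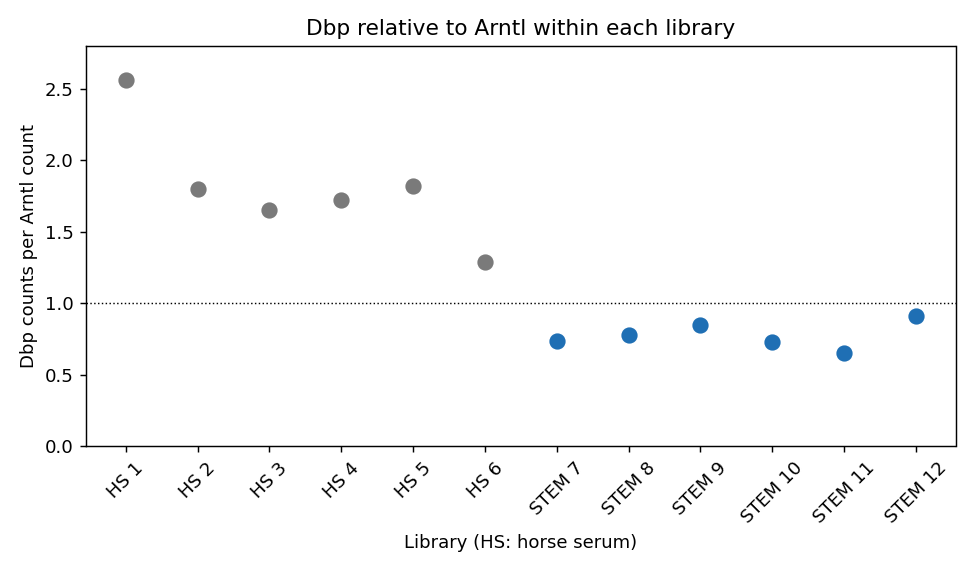
Dbp counts per Arntl count (vertical axis, from 0) in each of the 12 libraries, horse serum in grey and STEM in blue, with a dotted line at equal counts. The horse serum libraries lie between 1.29 and 2.56, all above the line, and the STEM libraries between 0.654 and 0.911, all below it.

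Levels were compared between genes as CPM per kilobase of exon sequence, over all annotated exons of a gene. With horse serum, Nr1d2 had the highest level of the 10 (18.8 ± 0.954 CPM per kilobase), followed by Dbp (12.9 ± 2.09), Clock (11.2 ± 0.384), Cry1 (6.08 ± 0.485), Per3 (4.58 ± 0.537), Nr1d1 (3.13 ± 0.581), Arntl (2.88 ± 0.218), Per1 (2.41 ± 0.361), Per2 (2.23 ± 0.213) and Cry2 (1.79 ± 0.241, all SD, n = 6). The ranges over libraries overlapped between Dbp and Clock and between each pair of neighbours from Per3 down to Cry2, so the order within those stretches is not larger than the spread. In the order of STEM levels, Dbp (7.61 ± 0.735 CPM per kilobase) came after Clock (10.5 ± 0.606), and Arntl (3.91 ± 0.244) moved from rank 7 to rank 5. Of the paralogs, Nr1d2 had a higher level than Nr1d1 and Cry1 than Cry2 in both media, with no overlap between the libraries of a medium.

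For 4 of the 10 genes another annotated gene overlapped their exons on the opposite strand, and the sources used here do not state whether the counting used the strand. Sphk2, a sphingosine kinase gene, shared 539 bases with Dbp (18.0% of the exon sequence of Dbp) and moved the other way, from 14.3 ± 1.85 to 17.6 ± 1.30 CPM (log2 fold change 0.30, adjusted p = 0.0145 in edgeR). Thra, the gene of thyroid hormone receptor alpha, shared 263 bases with Nr1d1 (8.55% of its exon sequence) and went from 68.6 ± 9.08 to 56.6 ± 3.82 CPM (log2 fold change -0.28, adjusted p = 0.0177 in edgeR). If the strand was not used, reads in these shared bases cannot be told apart. The partners of Arntl (Gm45355, 33 bases) and Cry2 (D930015M05Rik, 295 bases) had at most 1 count in any library.

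A wider list of 56 clock-related genes was examined by role, of which 52 were tested and 21 were called (40.4%), 11 higher and 10 lower. The list's median change was 0.02 on the log2 scale, beside 0.01 over all tested genes. As a whole this share is near the background of 36.4%, and the description below is by role.
All 4 further repressors were called, beside 36.4% of all tested genes. The groups did not overlap for any of the 4, beside 17.2% of all tested genes without overlap. Ciart, which encodes the repressor CHRONO, went from 6.58 ± 0.923 to 9.27 ± 1.27 CPM (SD, n = 6 each), a log2 fold change of 0.50 with a standard error of 0.115 (adjusted p = 0.00347 in edgeR). Bhlhe41, one of the DEC genes that compete for E-boxes, went from 90.9 ± 3.18 to 121 ± 4.33 CPM (log2 fold change 0.42, adjusted p = 2.58e-06). Its paralog Bhlhe40 went from 179 ± 13.2 to 221 ± 21.1 CPM (log2 fold change 0.31, adjusted p = 0.00232). These 3 genes, like Arntl and the cryptochromes, were higher with STEM, opposite to Dbp, Per1, Per3 and Nr1d2. Timeless, which also serves DNA replication, fell by 0.59 on the log2 scale (adjusted p = 0.011), with its highest value, 6.87 CPM, in horse serum library 6.
Of the ROR receptors, Rora was at 20.0 ± 6.44 and 14.7 ± 2.27 CPM (SD, n = 6 each) and was not called (log2 fold change -0.43, adjusted p = 0.177 in edgeR). Its lowest horse serum value, 7.07 CPM, was that of library 6, and without this library Rora was called, with a log2 fold change of -0.62 (adjusted p = 1.17e-05). Rorb had 0 counts in every library, where 0 counts allow up to 3.

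Among the factors that share the D-box with Dbp, Tef was at 225 ± 25.9 and 211 ± 10.7 CPM (log2 fold change -0.10, 95% interval from -0.24 to 0.05, adjusted p = 0.308 in edgeR). Without library 6, Tef was called at -0.15 (adjusted p = 0.00713). Nfil3, the D-box repressor, was at 55.9 ± 10.98 CPM and 55.4 ± 6.65 CPM (log2 fold change -0.01, 95% interval from -0.29 to 0.27, adjusted p = 0.967). Hlf had at most 7 counts in a library and was not tested. Of the paralogs of the activators, Npas2 was near 0 in every library, and Arntl2 was at 2.25 ± 0.977 CPM and 1.78 ± 0.272 CPM (log2 fold change -0.35, adjusted p = 0.259), or -0.05 without library 6, which held 4.20 CPM.
Of 10 tested kinases and ubiquitin ligases that set the stability of clock proteins, 1 was called. It was Gsk3b, from 62.8 ± 6.81 to 82.1 ± 9.57 CPM (log2 fold change 0.39, adjusted p = 0.00222 in edgeR), and the other 9, the casein kinase 1 genes Csnk1d and Csnk1e among them, had log2 fold changes between -0.12 and 0.07. Of 11 cofactors, 2 were called, with Wdr5 higher (0.17, adjusted p = 0.0265) and Kdm5a lower (-0.19, adjusted p = 0.00594). Without library 6, 4 of the 11 cofactors (3 higher, 1 lower) and 2 of the 10 kinases and ligases (1 higher, 1 lower) were called. The background was 36.4% of all tested genes called, or 50.8% without that library.

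Of 12 genes that follow the clock in many tissues or in muscle, 6 were called, all lower with STEM, beside 36.4% of all tested genes called and 17.4% called lower. These were Pdk4 (log2 fold change -0.73), Wee1 (-0.64), Nampt (-0.62), Tspan4 (-0.53), Tsc22d3 (-0.44) and Klf9 (-0.32). The lowest adjusted p-values in edgeR among them were those of Tspan4 (2.24e-06), Pdk4 (2.49e-05), Wee1 (2.50e-05) and Klf9 (0.000379), and all STEM values of these 4 genes lay below all horse serum values, beside 17.2% of all tested genes without overlap in either direction. Wee1 is also a gene of the cell cycle, Pdk4 and Nampt of fuel metabolism, and Tsc22d3 and Klf9 respond to glucocorticoids. The other 6, with the muscle genes Myod1, Tcap and Ucp3 among them, were not called, at log2 fold changes between -0.10 and 0.13.
The 10 genes listed on the input side belong to responses to serum, cyclic AMP or glucocorticoids, as part of the route or as targets. Of these, 7 were called, 6 higher and 1 lower, beside 36.4% of all tested genes called and 18.9% called higher. Tsc22d3 and Klf9, which also respond to glucocorticoids and were lower, were listed as outputs, so the split depends on how genes were assigned. Egr1, an immediate early gene, went from 10.5 ± 2.71 to 20.2 ± 4.97 CPM (log2 fold change 0.94, adjusted p = 0.00243 in edgeR), and 5 of 6 STEM values were over the highest horse serum value. Srf, the serum response factor gene, rose by 0.24 (adjusted p = 0.00241) and Atf4, a CREB family gene, by 0.36 (adjusted p = 0.000782) on the log2 scale. The other 3 higher genes were near the threshold, with adjusted p-values of 0.0388 for Crem, 0.0439 for Crtc1 and 0.0456 for Sgk1. Nr3c1, the glucocorticoid receptor gene, was the 1 that fell, from 178 ± 19.6 to 142 ± 4.92 CPM (log2 fold change -0.33, adjusted p = 0.00159), while the receptor's target Fkbp5 was at 0.14 (adjusted p = 0.249), or 0.24 without library 6 (adjusted p = 0.00102). Fos, an immediate early gene like Egr1, was not called (0.30, adjusted p = 0.181 in edgeR), nor was Sik1 (-0.002, adjusted p = 0.982).

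**Figure D4:**
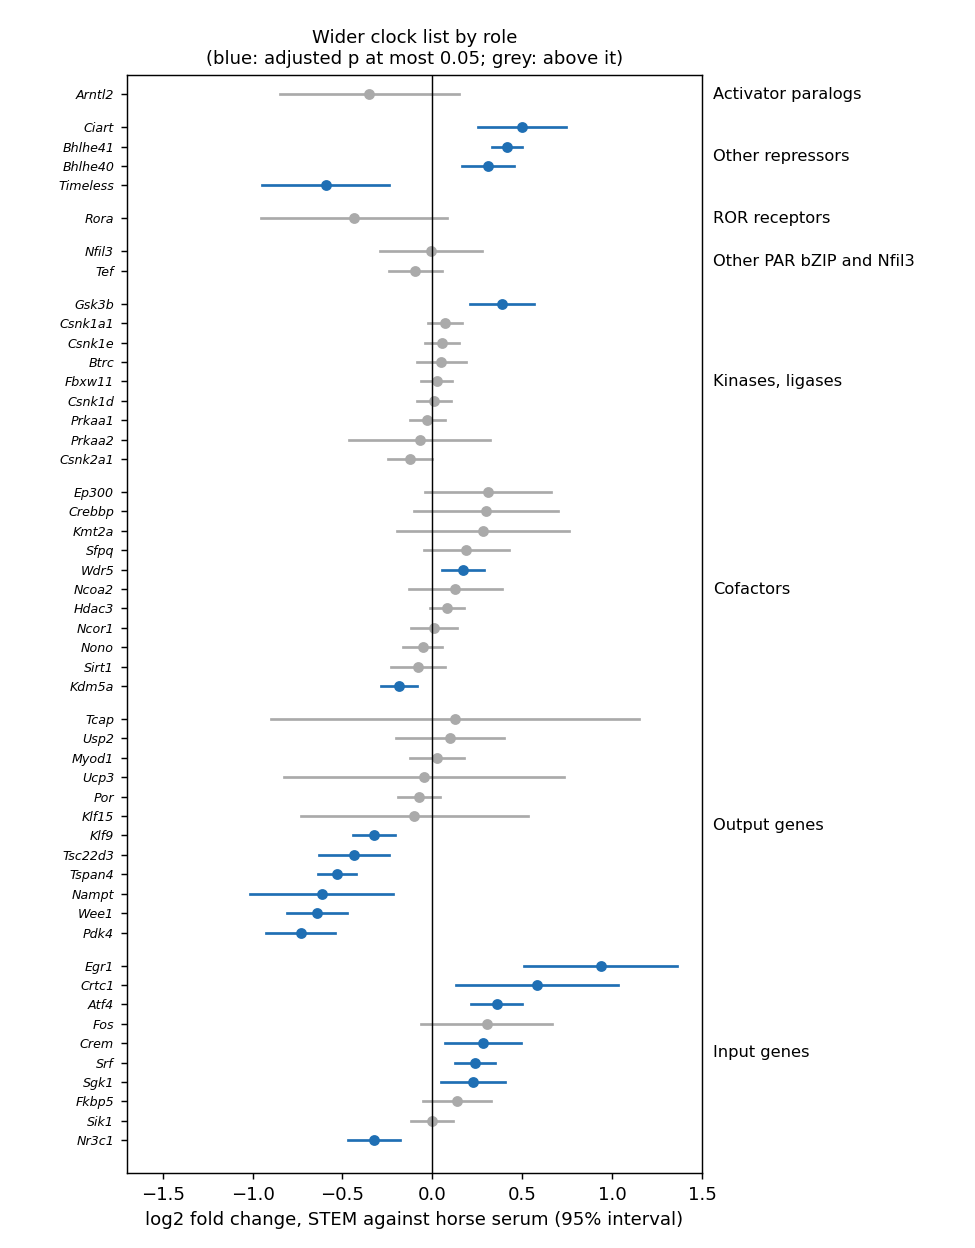
Log2 fold change (horizontal axis) with its 95% interval for 50 of the 52 tested genes of the wider clock list, grouped by role, blue for genes called in edgeR and grey for the others. All 6 called output genes lie below 0, and 3 of the 4 further repressors and 6 of the 7 called input genes lie above 0.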

How the data were processed

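Stranded libraries (TruSeq with Ribo-Zero Gold, which removes ribosomal RNA) were made from the total RNA of myotubes in 12 samples. The authors deposited raw counts per Ensembl gene for GRCm38, not normalized. The submitters' processing notes list STAR 2.7.3a, featureCounts 1.6.3 and DESeq2 1.26.0, and the annotation release and strand setting are not given in the sources used here. Symbols, coordinates and exon lengths came from GENCODE M21, which held 55227 of 55487 listed genes.

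The counts were fitted over the whole table with edgeR 4.0.16 (TMM, filterByExpr, robust glmQLFit, glmQLFTest) in R 4.3.3, with Benjamini-Hochberg adjustment over 14175 genes. Calls needed an adjusted p no higher than 0.05. CPM used TMM-scaled totals, and log2 CPM a prior count of 2. Depth limits precision, and intervals cover the spread between libraries. Within a group no library was a resequenced copy of another, the closest pair having a chi-square of 3.29 per degree of freedom. This value cannot tell whether libraries share RNA or a culture. No batch was given in the labels.

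Members and lists were chosen with earlier results of these data known. The wider list covered activator paralogs, repressors, ROR receptors, PAR bZIP factors, kinases and ligases, cofactors, outputs and inputs. The rule for named genes took the 10 members, the overlapping genes, the other genes of the first 4 roles and up to 4 called genes of each other role by lowest p, and for 4 members the 3 genes with the most similar pattern. Of the wider list, 2 tested genes enter the counts and are not reported here by name. Further kinase, output and input genes are named as examples, chosen after their values were seen.

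On counts simulated for this comparison with 14175 genes, edgeR recovered 85 of 100 genes changed 2-fold and 63 of 100 changed 1.5-fold, with 6.33% of calls false. The simulation changed no other genes and held no library that stood apart like horse serum library 6. In the data 36.4% of tested genes were called, so these rates may differ there. Alternatives were other scalings, no filter or at least 10 counts in every library, DESeq2 1.42.0, limma-voom (limma 3.58.1), a stricter threshold of 0.01, glmTreat with a minimum change of 1.5-fold, a prior count of 0.5 and leaving out each library in turn.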

Additional observations from a re-analysis of the deposited data

How the results depend on the processing

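The log2 fold changes of Arntl, Per1, Per3, Cry1, Nr1d2 and Dbp kept their sign and stayed called under the 7 other scalings, filters and tools and with each of the 12 libraries left out, and those of Clock and Per2 kept their sign and stayed uncalled. Cry2 lost its call with upper quartile scaling (log2 fold change 0.26, adjusted p = 0.0589 in edgeR) and without the filter on low counts (0.27, adjusted p = 0.0542), and its value lay between 0.23 and 0.35 with 1 library left out, with adjusted p-values from 0.0135 to 0.100 over all alternatives. Nr1d1 lay between -0.48 and -0.29 with 1 library left out, and its adjusted p between 0.0316 and 0.182 over all alternatives. In the test against a 1.5-fold change (glmTreat) 0 of the 10 clock genes passed, 0 higher and 0 lower, and 0 of the 52 tested genes of the wider list. Few genes of any kind passed it, 268 of all 14175 tested. At an unadjusted p-value of 0.05 or less 1 clock gene (Dbp) and 3 genes of the wider list passed it, while the ordinary test called 7 clock genes in edgeR, DESeq2 and limma-voom. All clock genes except Dbp had point estimates under a 1.5-fold change. The number of called clock genes lay between 6 and 8 with 1 library left out, and that of the wider list between 17 and 27, the highest without horse serum library 6, where 50.8% of all tested genes were called. The difference of the log2 ratio of Dbp to Arntl lay between -1.28 and -1.09. No paired analysis was possible because the groups share no replicate numbers.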

Other observations

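After the group means were subtracted, the log2 CPM of Per1 and Per2 had a Pearson r of 0.84 and a Spearman rho of 0.85 over 12 libraries, and those of Per1 and Per3 a Pearson r of 0.82 and a rho of 0.80. Without horse serum library 6 the values of r were 0.82 and 0.79, and without the 2 libraries farthest from the median of Per1 they were 0.75 and 0.78. The libraries share their cell line and their depth enters all genes, so these are descriptions of 12 libraries and carry no p-value. Both were picked from 45 pairs of clock genes as the 2 with the highest r. The remaining pair of period genes, Per2 and Per3, had an r of 0.61 and a rho of 0.71, with an r of 0.55 without horse serum library 6 and 0.47 without the 2 farthest libraries, and Clock and Nr1d1 had an r of 0.72.

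The genes most like a clock gene in this sense were found among all 14175 tested genes. For Nr1d1 they were Dvl3 (r = 0.99), Zfp469 (0.97) and Qser1 (0.97), and 148 genes, these 3 included, had an r above 0.9 with Nr1d1. For Dbp there were 25 such genes, led by Mllt3 (0.94), Epb41 (0.94) and the pseudogene Gm10169 (0.94), with r of 0.88, 0.88 and 0.85 without horse serum library 6. For Per2 the most alike were Gm45176 (0.92), Kif24 (0.91) and Gm46218 (0.89). For Arntl, which had 0 genes above an r of 0.9, they were the pseudogene Rpl30-ps1 (0.90), Vbp1 (0.89) and Gm10778 (0.87). None of these 12 genes is on the wider clock list. The variation of Nr1d1 between libraries of a group was therefore shared with many more genes than that of Arntl, and what those libraries have in common was not tested.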
